A study of Mus musculus with 6 samples.

Results

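The genes of the major histocompatibility complex (MHC) and of antigen presentation were followed in Arg1+ macrophages with and without knockdown of Trem2. They were taken as every symbol of the count table that begins with H2-, with 3 symbols ending in -ps or -ps1 left out, and 14 further genes of the pathway (B2m, Tap1, Tap2, Tapbp, Tapbpl, Psmb8, Psmb9, Psmb10, Nlrc5, Ciita, Cd74, Erap1, Cd1d1 and Mr1). This gave 45 H2 symbols and 59 genes in all, of 56092 symbols in the table. RNA sequencing had been performed on 6 libraries of RAW264.7 cells, a mouse macrophage line derived from BALB/c mice. The shNC group (n = 3) carried a control vector, labelled as empty and described in the study's methods as a negative control hairpin, and the shTrem2 group (n = 3) carried a lentiviral short hairpin RNA against Trem2. All 6 cultures had received IL-4 (20 ng/ml, 24 hours) to induce the Arg1+ state and had then been co-cultured for 24 hours with debris of TCMK-1 cells, a mouse renal tubular epithelial line. No library without IL-4 or without debris was analysed here, and the labels name neither the hairpin nor whether the replicates came from separate cultures, so that the p-values measure the spread between these libraries. Since control and knockdown cells had been transduced separately, an effect of the knockdown and another difference between the transduced lines cannot be told apart.

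Class I molecules consist of a polymorphic heavy chain and β2-microglobulin (B2m) and display peptides from the cytosol. The peptides are cut by the proteasome, carried into the endoplasmic reticulum by the transporter TAP (Tap1 and Tap2), trimmed by Erap1 and loaded with the help of tapasin (Tapbp). Class II molecules are pairs of α and β chains that assemble with the invariant chain Cd74, reach the endosome, exchange its remnant for a peptide with the help of H2-DM, and are held back in this step by H2-O. Nlrc5 and Ciita are related coactivators that drive transcription of class I and class II genes, respectively. Macrophages carry both classes, and interferon-γ is the best known inducer of both. RAW264.7 cells carry the H2 d haplotype, whereas the mouse reference genome carries the b haplotype, and the class I genes are close paralogs, so the reads of a class I gene may be divided among its relatives.

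The libraries held 15876119 to 18088388 estimated counts in the shNC group and 19358125 to 19655165 in the shTrem2 group. Levels are given as counts per 1000000 of these totals (CPM), and 3 counts, the floor of detection, correspond to 0.153 to 0.189 CPM. Genes were tested with edgeR's quasi-likelihood test over all 13528 genes with enough counts. A gene is said to have risen or fallen where its Benjamini-Hochberg adjusted p (FDR) was under 0.05, and is called a differentially expressed gene (DEG) where its fold change was also over 1.5. DEGs made up 21.8% of all tested genes, with 12.4% lower and 9.46% higher in shTrem2. Trem2 itself was at 116, 124 and 145 CPM in shNC and at 63.8, 62.5 and 79.2 CPM in shTrem2, a log2 fold change of -0.87 (SE 0.094, edgeR adjusted p = 3.39e-06), which became -2.08 on the authors' FPKM values (log2(FPKM + 0.1)). Of 10 macrophage markers, 9 were tested and Lyz2, Csf1r and Fcgr1 were DEGs higher in shTrem2 while Itgam was a DEG lower in shTrem2. Of the others tested, Cd68, Ptprc, Cd14 and Tyrobp rose and Adgre1 fell (log2 fold change -0.56, edgeR adjusted p = 3.54e-05), each by less than 1.5-fold. The summed macrophage markers were at 5632 to 6576 CPM in shNC and 10544 to 11904 CPM in shTrem2. Within this sum Lyz2 alone had a mean of 2834 CPM in shNC and 7270 CPM in shTrem2. The part of these markers in the results below was not tested.

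The sequence before the start of these genes holds letters known from MHC promoters, and windows were taken from RefSeq on GRCm38.p6, which gave 250 bases before and 50 after the start for 38 of the 59 genes (24 of the 37 tested). ATTGG, the inverted CCAAT box, and TGACG, the core of the CRE, were searched on both strands. A gene was counted where any of its windows held a match. The share over all genes is per single window, so it is not a like measure. A gene with several windows had more chances of a match. ATTGG was found in 19 of the 24 tested genes with a window, against 37.4% of 32851 windows of all genes, and TGACG in 10 of 24, against 20.8%. ATTGG was in the window of 9 of 10 class I genes and 6 of 6 class II pathway genes. In 6 genes TGACG was followed after 19 to 21 bases by ATTGG on the strand of the gene (B2m, H2-Aa, H2-D1, H2-K1, H2-M3 and H2-Q7), which 0.116% of all windows show. This spacing was chosen after the positions had been seen. The other searches were for GAAANNGAA, 1 form of the letters of the interferon-stimulated response element, and for TTCNNNGAA, the gamma-activated site. GAAANNGAA was found in 4 of 24 (B2m, Erap1, H2-T22 and H2-T23) against 8.56% of all windows. TTCNNNGAA was found in 3 of 24 (H2-DMb2, H2-M3 and Psmb8) against 8.30%. Other forms of the interferon-stimulated response element were not searched. A window without GAAANNGAA may therefore still hold such an element. Before the start of the tested genes no match overlapped a match of another motif. TTCNNNGAA reads the same on both strands, and a TGACGTCA palindrome in H2-Aa holds TGACG on both strands. These are matches of letters and were not tested as binding sites. The windows are of the reference genome with the b haplotype, so letters and spacing may differ in these cells of the d haplotype.

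The 150 bases before the start of the 6 genes with the spaced pair are shown because they set side by side genes that fell to different degrees and H2-M3, which did not pass the test. Each is read 5′ to 3′ on the strand of its gene. Matches of the CRE core, the inverted CCAAT box and GAAANNGAA are in capitals, on either strand. They lie at chr17:35262944-35263093 (H2-D1, plus strand), chr17:34000348-34000497 (H2-K1, minus strand), chr17:35439005-35439154 (H2-Q7, plus strand), chr17:37270084-37270233 (H2-M3, plus strand), chr2:122147537-122147686 (B2m, plus strand) and chr17:34287824-34287973 (H2-Aa, minus strand).
H2-D1: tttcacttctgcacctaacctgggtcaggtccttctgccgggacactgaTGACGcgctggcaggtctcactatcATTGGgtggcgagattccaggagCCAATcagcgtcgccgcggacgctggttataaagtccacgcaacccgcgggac
H2-K1: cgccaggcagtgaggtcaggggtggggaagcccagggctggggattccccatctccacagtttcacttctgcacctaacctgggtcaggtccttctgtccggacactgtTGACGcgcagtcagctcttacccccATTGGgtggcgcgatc
H2-Q7: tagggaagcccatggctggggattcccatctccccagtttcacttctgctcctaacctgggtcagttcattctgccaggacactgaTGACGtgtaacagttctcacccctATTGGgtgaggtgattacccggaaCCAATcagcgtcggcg
H2-M3: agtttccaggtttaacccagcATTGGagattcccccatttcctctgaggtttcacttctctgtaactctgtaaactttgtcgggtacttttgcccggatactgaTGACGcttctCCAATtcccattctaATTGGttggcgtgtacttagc
B2m: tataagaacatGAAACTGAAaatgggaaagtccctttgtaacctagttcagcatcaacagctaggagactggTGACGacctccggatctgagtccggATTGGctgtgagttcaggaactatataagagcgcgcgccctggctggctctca
H2-Aa: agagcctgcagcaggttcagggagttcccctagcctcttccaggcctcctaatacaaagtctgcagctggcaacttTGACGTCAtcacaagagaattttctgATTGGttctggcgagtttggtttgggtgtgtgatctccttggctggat
In B2m the pair lies downstream of a match of GAAANNGAA. Whether H2-D1, H2-K1, H2-Q7, H2-M3 and H2-Aa hold another form of the interferon-stimulated response element was not tested, so B2m cannot be set apart from them by this match.

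The windows of H2-Eb1 (chr17:34305717-34305866, plus strand) and H2-Ob (chr17:34238755-34238904, plus strand) are shown for the class II pathway genes with the largest falls. Neither holds TGACG.
H2-Eb1: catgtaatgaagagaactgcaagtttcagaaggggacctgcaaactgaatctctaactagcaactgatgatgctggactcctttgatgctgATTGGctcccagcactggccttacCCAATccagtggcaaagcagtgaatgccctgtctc
H2-Ob: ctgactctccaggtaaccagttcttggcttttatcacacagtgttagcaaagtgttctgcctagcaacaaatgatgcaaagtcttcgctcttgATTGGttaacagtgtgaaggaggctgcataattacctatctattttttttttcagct
Tap1 and Psmb9 start 225 bases apart on opposite strands, so that 1 stretch (chr17:34187331-34187555, shown on the strand of Tap1) lies before both genes, which changed in opposite directions as given further on.
Tap1 and Psmb9: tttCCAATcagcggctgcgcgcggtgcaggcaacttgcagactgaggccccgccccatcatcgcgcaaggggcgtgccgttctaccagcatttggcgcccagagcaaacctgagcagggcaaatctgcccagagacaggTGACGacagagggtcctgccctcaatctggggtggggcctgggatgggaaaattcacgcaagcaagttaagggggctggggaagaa

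Of the 59 genes, 37 had enough counts for the test. The other 22 included 18 with at most 3 counts in every library and 15 with no count at all, among them H2-Pa and H2-Pb and most of the H2-M genes. Among the 37 tested genes, 24 fell and 7 rose in shTrem2, where 28.6% and 28.8% of all tested genes did (57.4% in either direction). DEGs numbered 17 (45.9% of the 37), against the 21.8% of all tested genes, and 15 of them were lower. The 2 higher DEGs were Psmb8 and H2-DMb2. The shNC and shTrem2 libraries did not overlap for 33 of the 37, as for 63.5% of all tested genes. Their median log2 fold change was -0.48, and the median over all tested genes was -2.84e-05. The directions were divided by role. Class I heavy chains and class II chains were mostly lower, and the loading and proteasome genes were mixed.

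**Figure D1:**
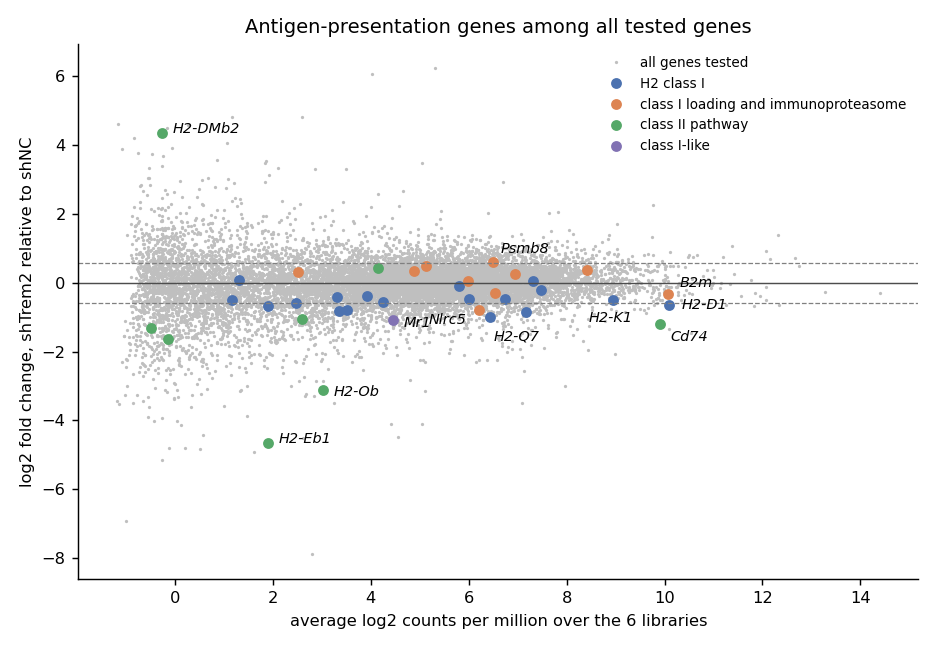
Log2 fold change of shTrem2 relative to shNC (vertical axis) against average log2 CPM over the 6 libraries (horizontal axis) for the 13528 tested genes (grey) and the 37 tested antigen-presentation genes (coloured by role), with dashed lines at a fold change of 1.5. The class I genes lie between -0.99 and 0.09, while H2-Eb1 at -4.66 and H2-DMb2 at 4.37 mark the extremes among the coloured points.

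Class I heavy chain genes fell across most of the locus. Of 33 class I H2 genes, 18 were tested and 14 fell, where 28.6% of all tested genes fell. The median over the 18 was -0.50 on the log2 scale. DEGs numbered 7 (H2-Q7, H2-Q6, H2-Q10, H2-Q5, H2-T15, H2-D1 and H2-T13), and all 7 were lower. Lower DEGs made up 12.4% of all tested genes. The other 7 that fell were H2-K1, H2-K2, H2-Q1, H2-Q4, H2-T10, H2-T22 and H2-T23. The symbol H2-K2 joins a lncRNA and a transcribed pseudogene in the annotation, and H2-Q5, H2-T10 and H2-T13 are annotated as protein-coding genes with loss of function. H2-Q2, H2-M3, H2-T24 and H2-T5 did not pass the test. H2-T10 passed narrowly (adjusted p = 0.031) and failed in 5 of the 6 fits that left out 1 library, where only the fit without shTrem2 replicate 2 kept it (adjusted p from 0.0057 to 0.11).

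H2-D1 and H2-K1 encode classical heavy chains, which present peptides to CD8 T cells. H2-D1 was at 1344, 1381 and 1307 CPM in the shNC libraries and at 839.6, 851 and 817 CPM in the shTrem2 libraries. The groups stood well apart, with a log2 fold change of -0.65 (SE 0.043, edgeR adjusted p = 3.73e-08), a level of 63.7% of shNC. H2-K1 was at 588, 607 and 567 CPM in shNC and at 406, 415 and 399 CPM in shTrem2. It fell by 0.50 on the log2 scale (SE 0.044, edgeR adjusted p = 4.74e-07), again without overlap, and stayed short of the 1.5-fold limit. By FPKM, the authors' values per length of transcript, H2-K1 had the higher level, at 1014 ± 39.2 FPKM (SD, n = 3) in shNC and 726 ± 17.7 in shTrem2, against 813 ± 25.8 and 512 ± 10.6 FPKM for H2-D1. Together they made up 68.8% to 70.2% of the class I FPKM in shNC and 67.1% to 69.1% in shTrem2.

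The H2-Q genes encode non-classical class I molecules, among them Qa-2. H2-Q7 was at 119, 115 and 115 CPM in shNC and at 58.0, 58.1 and 55.3 CPM in shTrem2. The log2 fold change of H2-Q7 was -0.99 (SE 0.050, edgeR adjusted p = 3.25e-09), the largest fall of the class I genes tested. H2-Q6 was at 194, 193 and 176 CPM in shNC and at 101, 106 and 94.99 CPM in shTrem2. Its log2 fold change was -0.86 (SE 0.055, edgeR adjusted p = 2.32e-08), so that the shTrem2 libraries held 54.99% of the shNC level. H2-Q7 and H2-Q6 are near copies. Of the 150-base stretches of the H2-Q7 reference transcript, 9.68% also occurred in another gene, most often H2-Q6, while H2-K1 shared none. The values of H2-Q7 and H2-Q6 are thus uncertain singly. These are exact matches within the reference, which carries the b haplotype. They cannot show how reads of these d haplotype cells were divided, for H2-K1 as for the others.

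H2-Q10, which encodes a secreted class I molecule of the liver, was at 12.9, 14.4 and 12.1 CPM in shNC and at 7.25, 7.28 and 7.38 CPM in shTrem2. The groups were separate (log2 fold change -0.81, SE 0.12, edgeR adjusted p = 4.27e-05), and the fold change was smaller on FPKM values. H2-Q10 was no DEG with log2(FPKM + 1) (-0.50) and stayed one with log2(FPKM + 0.1) (-0.60). H2-Q5 was at 15.1, 15.5 and 13.3 CPM in shNC and at 7.76, 9.87 and 6.97 CPM in shTrem2 (log2 fold change -0.80, SE 0.13, edgeR adjusted p = 0.000177). H2-Q4 and H2-Q1 fell by less, with log2 fold changes of -0.48 and -0.39.

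The H2-T genes encode further non-classical molecules and ranged from a fall to values near 0. H2-T15 was at 4.41, 3.99 and 5.20 CPM in shNC and at 2.98, 2.89 and 2.39 CPM in shTrem2 (log2 fold change -0.68, SE 0.20, edgeR adjusted p = 0.00912). H2-T13 was at 7.37, 6.35 and 6.36 CPM in shNC and at 4.68, 3.98 and 4.38 CPM in shTrem2. It lay at the 1.5-fold limit, with a log2 fold change of -0.59 (SE 0.15, edgeR adjusted p = 0.00511). H2-T13 was no DEG without shNC replicate 1 (-0.53) or shTrem2 replicate 2 (-0.52), nor H2-T15 without shNC replicate 3 (-0.57), although all 3 values kept an FDR under 0.05. H2-T23, which encodes Qa-1, the ligand of the NKG2A receptor, had a smaller change of -0.21. H2-T24 was at 149, 152 and 174 CPM in shNC and at 162, 161 and 154 CPM in shTrem2, overlapping values with a log2 fold change of 0.04 (SE 0.059, edgeR adjusted p = 0.605).

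H2-M3 presents formylated peptides of bacterial and mitochondrial origin. It was at 61.0, 56.5 and 57.3 CPM in shNC and at 49.7, 54.3 and 55.9 CPM in shTrem2. The groups came close without overlapping, and the log2 fold change of -0.09 (SE 0.062) did not pass the test (edgeR adjusted p = 0.212). In the reference genome its promoter holds the same spaced pair of TGACG and ATTGG as H2-D1, H2-K1 and H2-Q7. H2-M2, H2-M5 and H2-T3 had at most 4 counts in any library, and the remaining H2-M genes and H2-Q3, H2-T7 and H2-T9 had none, which allows up to 0.153 to 0.189 CPM per library.

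Because reads may be divided among class I paralogs, the class I H2 symbols were also summed within each library. The sum was at 2958, 2995 and 2874 CPM in shNC and at 1986, 2032 and 1925 CPM in shTrem2. The log2 fold change of the sum was -0.55 (SE 0.043, edgeR adjusted p = 1.91e-07), and the groups did not overlap. This value does not depend on how reads were divided among the class I genes, only on their being counted to one of them. Since the RNA is from whole cultures, a lower level cannot be told apart between less RNA in each cell and fewer cells that express the gene.

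**Figure D2:**
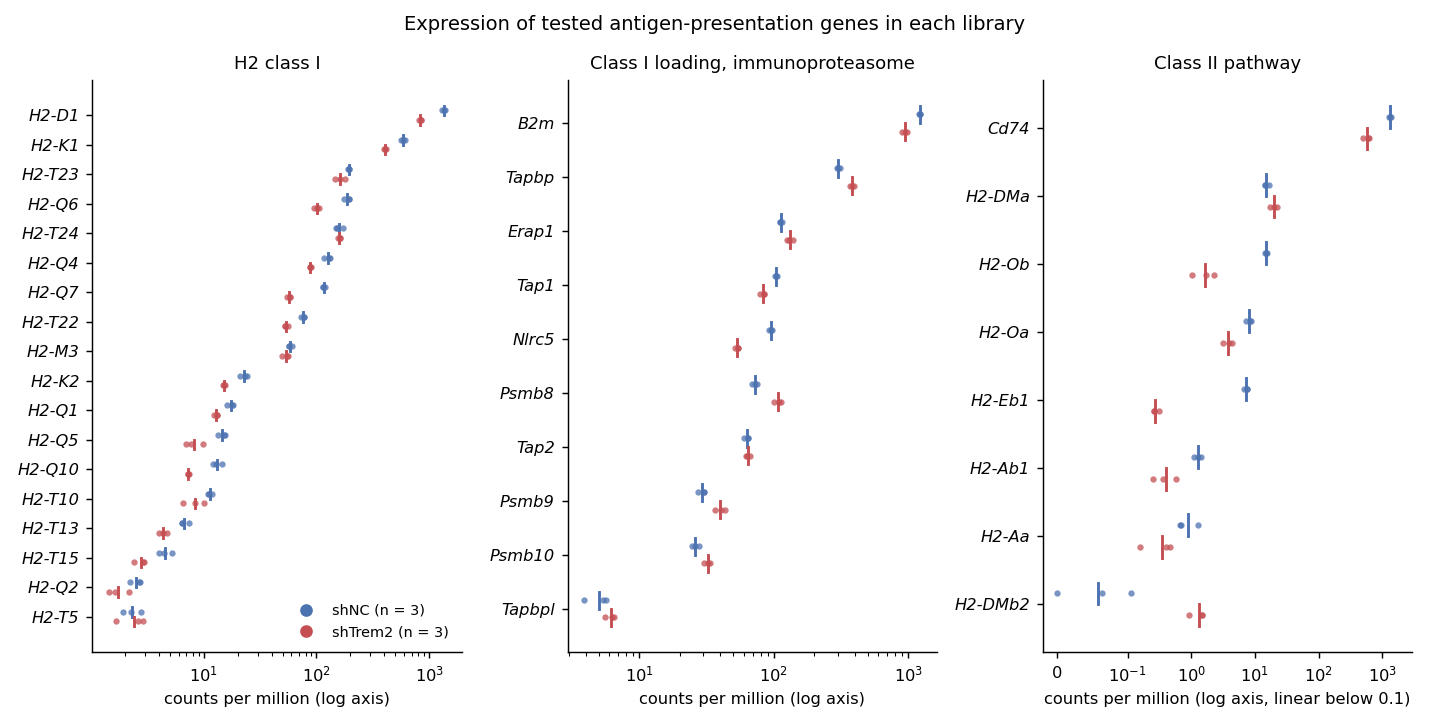
CPM of the tested genes in each library (points) with the group mean (vertical line) for class I H2 genes (18 genes), class I loading and immunoproteasome genes (10 genes) and class II pathway genes (8 genes), on log axes, the last of them linear below 0.1 CPM. H2-D1 lies at 1307 to 1381 CPM in shNC and 817 to 851 CPM in shTrem2, while the points of H2-T24 and Tap2 are intermingled.

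The genes that supply and load class I molecules did not move as a block. Of 10 genes in this group, 8 passed the test, against 57.4% of all tested genes. Among the 8, 5 rose (Psmb8, Psmb9, Psmb10, Tapbp and Erap1) and 3 fell (Nlrc5, B2m and Tap1). Of all tested genes, 28.8% rose and 28.6% fell. The DEGs were Nlrc5, lower, and Psmb8, higher, which is 2 of 10 and near the 21.8% of all tested genes. Tap2 and Tapbpl did not pass.

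Nlrc5, the coactivator of class I transcription, was at 95.05, 96.5 and 92.8 CPM in shNC and at 51.4, 54.6 and 54.3 CPM in shTrem2. Its level in shTrem2 was 57.7% of shNC, with no overlap (log2 fold change -0.79, SE 0.052, edgeR adjusted p = 3.27e-08). Counted on the transcript row with the most counts alone, Nlrc5 still fell but was no DEG (-0.46, edgeR adjusted p = 0.00364). B2m, the light chain, was at 1202, 1231 and 1233 CPM in shNC and at 942, 986 and 906 CPM in shTrem2. B2m fell by 0.34 on the log2 scale (SE 0.046, edgeR adjusted p = 2.77e-05). Per length, B2m was the most abundant gene of the 59 in both groups, at 2268 ± 23.9 FPKM (SD, n = 3) in shNC and 1749 ± 60.8 in shTrem2. The ratio of B2m FPKM to the summed class I heavy chain FPKM was 0.845, 0.845 and 0.891 in shNC and 0.944, 0.994 and 0.953 in shTrem2, so it was higher in each shTrem2 library, a description with no test.

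The subunits of TAP and their partners showed small changes in both directions. Tap1 was at 106, 103 and 104 CPM in shNC and at 84.4, 85.3 and 79.2 CPM in shTrem2. It fell by 0.29 on the log2 scale (SE 0.051, edgeR adjusted p = 0.000241). Tap2, its partner in the transporter, was at 60.1, 64.8 and 64.0 CPM in shNC and at 62.7, 66.5 and 63.2 CPM in shTrem2. These values overlapped (log2 fold change 0.06, SE 0.056, edgeR adjusted p = 0.38). Tapbp, the bridge between TAP and the heavy chain, was at 311, 302 and 297 CPM in shNC and at 393, 367 and 381 CPM in shTrem2. Tapbp rose by a log2 fold change of 0.36 (SE 0.045, edgeR adjusted p = 1.15e-05). Erap1, the trimming aminopeptidase, was at 115, 111 and 112 CPM in shNC and at 126, 129 and 138 CPM in shTrem2 (log2 fold change 0.25, SE 0.049, edgeR adjusted p = 0.000581). Tapbpl, a tapasin relative that edits peptides outside the loading complex, had a log2 fold change of 0.32 with overlapping groups (SE 0.17, edgeR adjusted p = 0.122).

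The inducible proteasome subunits were all higher in shTrem2. Psmb8 (LMP7) was at 69.5, 72.1 and 75.4 CPM in shNC and at 110.2, 99.96 and 113 CPM in shTrem2. The log2 fold change of Psmb8 was 0.61 (SE 0.060, edgeR adjusted p = 1.35e-06), just over the 1.5-fold limit. It fell under that limit without shNC replicate 1 (0.57) or shTrem2 replicate 3 (0.56), and with scaling by library size alone (0.57), with an FDR under 0.05 in each. Psmb9 (LMP2) was at 30.1, 27.5 and 30.5 CPM in shNC and at 43.5, 40.5 and 36.6 CPM in shTrem2. All 3 shTrem2 libraries were above all 3 shNC libraries (log2 fold change 0.49, SE 0.077, edgeR adjusted p = 0.000104). Psmb10 (MECL-1) was at 27.8, 24.8 and 25.9 CPM in shNC and at 33.8, 30.3 and 32.6 CPM in shTrem2. Its rise of 0.34 (SE 0.074, edgeR adjusted p = 0.00149) did not pass on FPKM values (limma adjusted p = 0.0687 with log2(FPKM + 1)).

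Each inducible subunit takes the place of a constitutive one in the proteasome, and the ratio of the partners within a library does not depend on scaling between libraries. The constitutive Psmb5 rose (log2 fold change 0.41, SE 0.058, edgeR adjusted p = 4.25e-05), as did Psmb7 (0.24, SE 0.047, edgeR adjusted p = 0.000721). Psmb6 was at 92.6 to 95.04 CPM in all 6 libraries (0.03, edgeR adjusted p = 0.602), a direction that turned with scaling by library size alone (-0.0036). The count ratio of Psmb8 to Psmb5 was 1.58, 1.73 and 1.69 in shNC and 1.91, 1.82 and 2.00 in shTrem2, a log2 difference of 0.20. The ratio of Psmb9 to Psmb6 was 0.317, 0.295 and 0.321 in shNC and 0.469, 0.427 and 0.385 in shTrem2, a log2 difference of 0.45. The ratio of Psmb10 to Psmb7 was 0.196, 0.180 and 0.181 in shNC and 0.215, 0.189 and 0.192 in shTrem2, a log2 difference of 0.10 with overlapping groups. By two-sided exact permutation tests over the libraries, p was 0.1, 0.1 and 0.3 for the 3 ratios, and 0.15, 0.15 and 0.3 after Benjamini-Hochberg adjustment. With 3 libraries against 3, 0.1 is the smallest p such a test can give, so none could pass 0.05.

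Psmb9 and Tap1 share the 225 bases between their starts that are printed above. The count ratio of Psmb9 to Tap1 was 0.285, 0.269 and 0.294 in shNC and 0.515, 0.475 and 0.463 in shTrem2. The ratio was higher in every shTrem2 library, by 0.78 on the log2 scale, because Psmb9 rose and Tap1 fell. This pair was chosen after its values had been seen and was not tested.

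**Figure D3:**
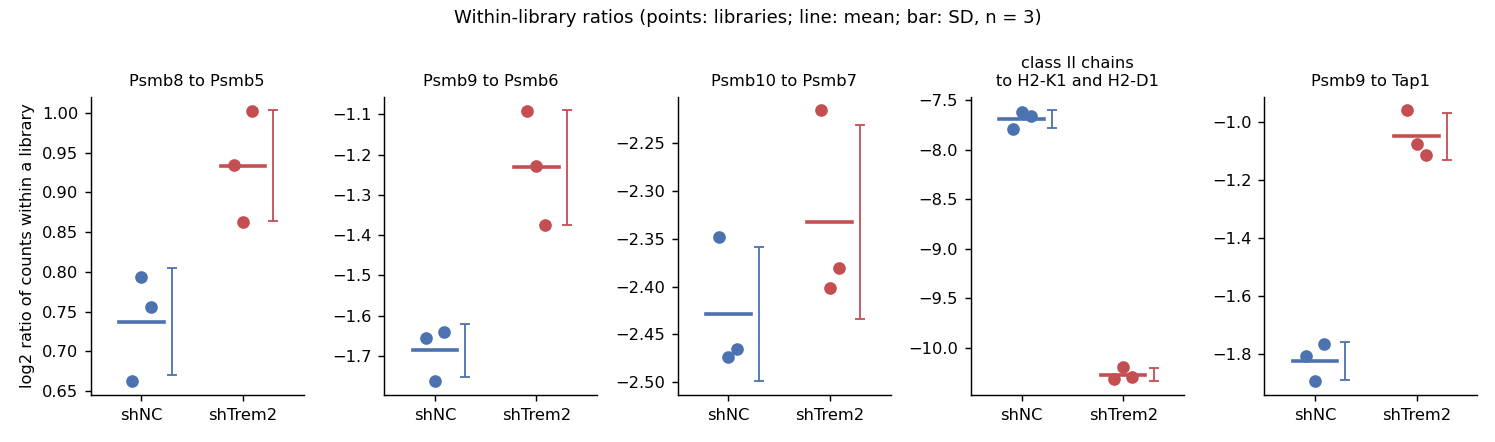
Log2 ratio of counts within each library (points) for 5 pairs, with the group mean (line) and SD (bar), n = 3 libraries a group, each panel with its own vertical axis. The shTrem2 libraries lie above the shNC libraries for Psmb8 to Psmb5, Psmb9 to Psmb6 and Psmb9 to Tap1, overlap them for Psmb10 to Psmb7, and lie 2.58 below them for class II chains to H2-K1 and H2-D1.

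The largest falls among the 37 tested genes were in the class II pathway. Of 12 genes, 8 were tested and all 8 passed, with 6 falling (H2-Eb1, H2-Ob, H2-Ab1, H2-Aa, Cd74 and H2-Oa) and 2 rising (H2-DMb2 and H2-DMa). All but H2-DMa were DEGs. Of all tested genes, 57.4% passed and 21.8% were DEGs. H2-Aa and H2-Ab1 in both groups and H2-Eb1 in shTrem2 were near the detection limit, however. Markers of B cells and dendritic cells, which express much class II, were at 8 counts or fewer in every library for 10 of 11 genes, with Ms4a1, Flt3 and Cd209a at 0 in all 6. The eleventh, Zbtb46, was a DEG lower in shTrem2, at 8.14 ± 0.35 CPM (SD, n = 3) in shNC and 4.43 ± 1.00 in shTrem2, and the summed list was at 8.40 to 9.16 CPM in shNC and 4.16 to 6.11 CPM in shTrem2. Its part in the class II values was not tested.

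Cd74, the invariant chain, was at 1354, 1393 and 1305 CPM in shNC and at 614, 592 and 502 CPM in shTrem2. The shTrem2 libraries were far below the shNC libraries, at 43.2% of their level (log2 fold change -1.21, SE 0.065, edgeR adjusted p = 5.47e-09). Per length, Cd74 was the second most abundant gene of the 59 in shNC, at 1468 ± 46.3 FPKM (SD, n = 3), and was below H2-K1 in shTrem2, at 622 ± 59.9 FPKM. This order is by mean and was not tested.

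H2-Eb1, the β chain of the E molecule, was at 6.80, 7.42 and 7.52 CPM in shNC and at 0.257, 0.258 and 0.305 CPM in shTrem2. It had the largest fall of the 37 tested genes, with a log2 fold change of -4.66 (SE 0.25, edgeR adjusted p = 5.67e-09). The fall rests on 376 counts over the shNC libraries and 16 over the shTrem2 libraries, a ratio of 26.6 with a 95% interval of 16.1 to 46.9 that covers counting error only. H2-Ea, its partner chain, had 0, 4 and 5 counts in shNC and 0, 1 and 0 in shTrem2 and was not tested. H2-Ea is annotated as a protein-coding gene with loss of function in the reference, which carries the b haplotype. Its counts may therefore not show its level in these cells of the d haplotype.

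The chains of the A molecule were scarcer still. H2-Ab1 was at 1.26, 1.41 and 1.11 CPM in shNC and at 0.565, 0.362 and 0.254 CPM in shTrem2, which is 65 counts against 23 (log2 fold change -1.62, SE 0.39, edgeR adjusted p = 0.00276). H2-Aa was at 0.693, 1.29 and 0.663 CPM in shNC and at 0.154, 0.465 and 0.407 CPM in shTrem2, which is 46 counts against 20. The groups did not overlap for either gene. The fall of H2-Aa, a log2 fold change of -1.32 (SE 0.48, edgeR adjusted p = 0.0298), did not pass without shNC replicate 2 (-0.95, adjusted p = 0.18) or without shTrem2 replicate 1 (-0.98, adjusted p = 0.126). With a change of similar size it also missed the threshold in DESeq2 (-1.34, adjusted p = 0.0649), with an effective-length offset (-1.28, adjusted p = 0.0551) and on the row with the most counts (-1.41, adjusted p = 0.054).

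H2-O, made of H2-Oa and H2-Ob, restrains peptide exchange by H2-DM. H2-Ob was at 15.4, 14.3 and 15.0 CPM in shNC and at 2.26, 1.70 and 1.02 CPM in shTrem2. Its level in shTrem2 was 11.4% of shNC (log2 fold change -3.13, SE 0.20, edgeR adjusted p = 2.16e-08). H2-Oa was at 7.31, 8.26 and 8.73 CPM in shNC and at 3.91, 4.44 and 3.15 CPM in shTrem2 (log2 fold change -1.05, SE 0.17, edgeR adjusted p = 0.00011). In both genes every shTrem2 library was below every shNC library.

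H2-DM, the exchange factor, went the other way. H2-DMa was at 16.6, 14.3 and 14.4 CPM in shNC and at 22.1, 19.8 and 17.3 CPM in shTrem2 (log2 fold change 0.42, SE 0.11, edgeR adjusted p = 0.00437). H2-DMb2 was at 0.0630, 0.112 and 0 CPM in shNC and at 1.49, 0.930 and 1.48 CPM in shTrem2. The log2 fold change of H2-DMb2 was 4.37 (SE 0.61, edgeR adjusted p = 3.75e-05), on 3 counts in shNC against 76 in shTrem2, a ratio of 22.4 with a 95% counting interval of 7.39 to 111. Without shNC replicate 2 the log2 fold change of H2-DMb2 was 5.19, and without shNC replicate 3 it was 3.81. H2-DMb1 is a close paralog of H2-DMb2 and may share reads with it. It had 4, 0 and 1 counts in shNC and 7, 12 and 10 in shTrem2 and did not reach the test. In both groups the β chain genes of H2-DM were thus counted far below the α chain gene H2-DMa. In shNC, H2-DMb2 was at 0.05 and H2-DMb1 at 0.137 FPKM, against 16.3 for H2-DMa. In shTrem2, H2-DMb2 was at 1.17 and H2-DMb1 at 0.477 FPKM, against 23.5 for H2-DMa.

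Ciita, the coactivator of class II transcription, had 3, 0 and 5 counts in shNC and 5, 4 and 4 in shTrem2. With 8 counts against 13 the ratio of shTrem2 to shNC was 1.44 with a 95% counting interval of 0.553 to 4.00, so no difference was detectable at this depth. H2-Eb2 had no count in any library.

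The summed class II chains H2-Aa, H2-Ab1 and H2-Eb1 were set against the summed class I chains H2-K1 and H2-D1 within each library. The log2 ratio of counts was -7.79, -7.62 and -7.66 in shNC and -10.32, -10.19 and -10.30 in shTrem2. The summed class II chains were thus 5.98-fold lower relative to class I in shTrem2 by counts and 5.26-fold lower by FPKM, a description with no test. Most of this sum in shNC was H2-Eb1, with 376 counts against 46 for H2-Aa and 65 for H2-Ab1. In shTrem2 these genes had 16, 20 and 23 counts. The size of the fall thus rests largely on H2-Eb1 and does not hold for each chain.

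**Figure D4:**
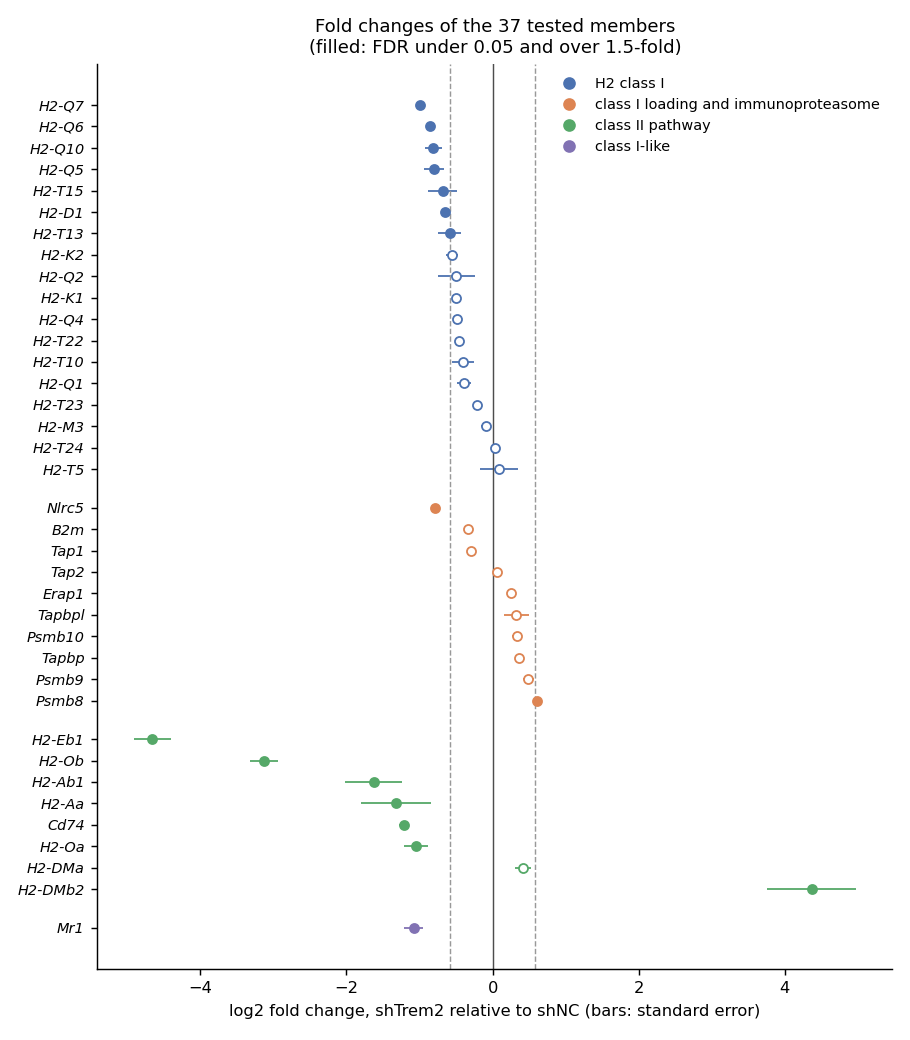
Log2 fold change of shTrem2 relative to shNC (horizontal axis) with its standard error for each of the 37 tested genes, grouped by role, with filled points for DEGs and dashed lines at a fold change of 1.5. Class I genes lie in a narrow band with a median of -0.50, loading genes lie on both sides of 0 from -0.79 to 0.61, and class II pathway genes are spread from -4.66 to 4.37.

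The class I-like genes Mr1 and Cd1d1 present small metabolites and lipids rather than peptides. Mr1, which shows microbial riboflavin metabolites to MAIT cells, was at 33.8, 28.4 and 28.1 CPM in shNC and at 14.4, 16.6 and 10.7 CPM in shTrem2. It fell to 47.4% of shNC with no overlap (log2 fold change -1.08, SE 0.13, edgeR adjusted p = 9.89e-06). Cd1d1, the lipid-presenting molecule of NKT cells, had at most 1 count in any library and was not tested.

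Other genes of antigen presentation, chosen as lists of 46 symbols, included 44 that were tested. Of these, 19 rose and 7 fell, where 28.8% and 28.6% of all tested genes did (57.4% in either direction), and 6 were DEGs, against 21.8% of all tested genes. Among 15 genes of peptide supply and loading, such as calreticulin, calnexin and the proteasome activators, 7 rose and 1 fell, each by less than 1.5-fold (log2 fold changes from -0.47 to 0.42). Among 21 factors of class II promoters and interferon signalling, 7 rose and 5 fell, and 4 were DEGs. Among 8 genes of the class II compartment, 5 rose and 1 fell, and 2 were DEGs.

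Interferon-γ signals through the kinases Jak1 and Jak2, and Irf1 and Irf8 are transcription factors of the interferon response. Jak2 was at 159, 151 and 139.6 CPM in shNC and at 63.2, 63.8 and 59.0 CPM in shTrem2 (log2 fold change -1.24, SE 0.058, edgeR adjusted p = 1.40e-09). The shTrem2 libraries were far below the shNC libraries. Irf8 was at 104, 111 and 102 CPM in shNC and at 50.5, 53.7 and 56.2 CPM in shTrem2 (log2 fold change -0.95, SE 0.057, edgeR adjusted p = 1.53e-08). Irf1, at 21.2 to 23.8 CPM in shNC and 22.7 to 25.3 CPM in shTrem2, overlapped (log2 fold change 0.14, SE 0.080, edgeR adjusted p = 0.163). Other interferon factors of the list rose by less than 1.5-fold. These were Irf2 (log2 fold change 0.53, edgeR adjusted p = 1.85e-05), Irf9 (0.36, edgeR adjusted p = 0.000437), Stat2 (0.31, edgeR adjusted p = 0.000462) and Jak1 (0.15, edgeR adjusted p = 0.0168). Ifngr2 fell (-0.28, edgeR adjusted p = 0.000984). Ifngr1, Ifnar1, Ifnar2 and Socs1 did not pass the test.

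Rfx5 and the NF-Y subunits bind class I and class II promoters, NF-Y at CCAAT boxes. Whether NF-Y binds at the letters shown above was not tested. Rfx5 was at 76.2, 75.4 and 71.5 CPM in shNC and at 52.5, 55.7 and 51.8 CPM in shTrem2, a fall of 0.45 on the log2 scale (SE 0.056, edgeR adjusted p = 1.31e-05). Nfyc was at 16.3, 16.8 and 19.1 CPM in shNC and at 36.7, 33.9 and 37.2 CPM in shTrem2, a rise of 1.08 (SE 0.082, edgeR adjusted p = 1.16e-07). The other subunits did not pass the test, with log2 fold changes of 0.02 for Nfya (SE 0.053, edgeR adjusted p = 0.769) and 0.04 for Nfyb (SE 0.080, edgeR adjusted p = 0.673). In the endosome, cathepsin L (Ctsl), a protease that acts on the invariant chain in some cells, was at 608, 609.8 and 623 CPM in shNC and at 351, 376 and 328 CPM in shTrem2 (log2 fold change -0.77, SE 0.052, edgeR adjusted p = 3.92e-08). Marchf1, the ubiquitin ligase that removes class II from the cell surface, was at 0.378, 0.281 and 0.442 CPM in shNC and at 1.13, 1.03 and 1.12 CPM in shTrem2 (log2 fold change 1.59, SE 0.38, edgeR adjusted p = 0.00268). The rise of Marchf1 rests on 6, 5 and 8 counts in shNC and 22, 20 and 22 in shTrem2, near the detection limit in shNC.

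**Figure D5:**
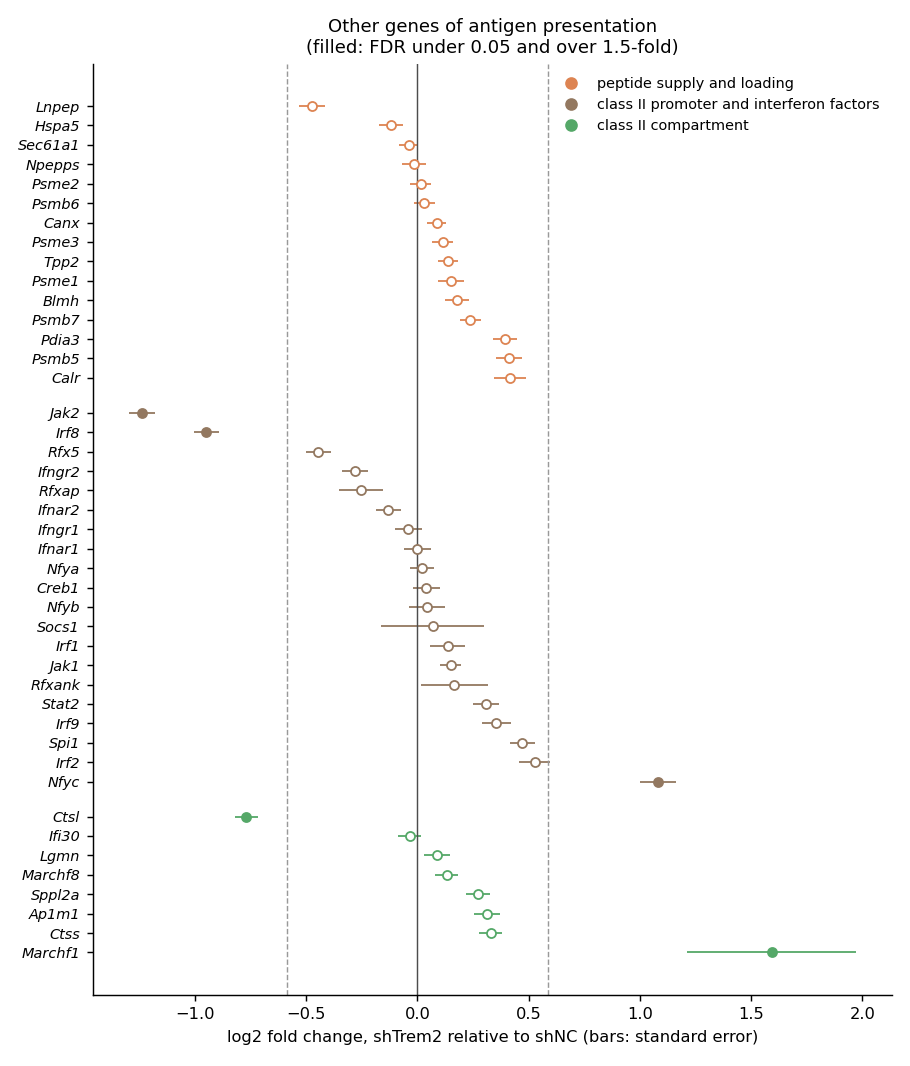
Log2 fold change of shTrem2 relative to shNC (horizontal axis) with its standard error for 43 other genes of antigen presentation in 3 lists, with filled points for DEGs and dashed lines at a fold change of 1.5. The filled points are Marchf1 at 1.59 and Nfyc at 1.08 on the right, and Jak2 at -1.24, Irf8 at -0.95 and Ctsl at -0.77 on the left.

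Markers of tubular epithelium, the source of the debris, were counted as well. Of 14 tubular epithelial markers, 9 were at 0 counts in all 6 libraries, Epcam, Cdh1, Krt8 and Krt18 among them. The highest was Aqp1, with 12, 6 and 5 counts in shNC and 38, 50 and 39 in shTrem2, and the others had at most 8 counts in any library. The summed list was at 0.675 to 1.20 CPM in shNC and 2.09 to 2.74 CPM in shTrem2, and its part in the values above was not tested.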

How the data were processed

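RNA of 6 RAW264.7 libraries (shNC, n = 3; shTrem2, n = 3) had been sequenced as stranded, polyA-selected libraries. The submitters' processing notes name fastp, HISAT2, StringTie and GRCm39. The counting tool is not given in the sources used here. The estimated counts deposited by the authors have several transcript rows per gene symbol. Rows were summed per symbol and rounded, and rows without a symbol (0.908% to 1.12% of counts) were left out. FPKM values as deposited by the authors, 1 row per gene identifier, served for levels between genes and as an alternative. The authors' group means were not used.

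Genes were tested with edgeR 4.0.16 (quasi-likelihood, TMM scaling, filterByExpr, all 6 libraries, no covariate) in R 4.3.3 and adjusted by Benjamini-Hochberg over 13528 genes, with an FDR of 0.05 and a fold change of 1.5 as limits. Standard errors are of the log2 fold change. CPM are unscaled, so a ratio of means differs slightly from the fitted fold change. In a simulation on 13361 genes, every gene was given the common spread estimated from these libraries. Of 100 genes over 1 CPM that were changed by 0.8 on the log2 scale, 93 were recovered. Spread that differs by gene and changed genes under 1 CPM were not simulated, so this share does not cover the scarcest members. Ratios within libraries were tested by exact permutation. DESeq2 1.42.0 and limma 3.58.1 were alternatives. The same-numbered libraries did not deviate together (correlations of -0.0044 to 0.0066 over genes) and were not paired. No 2 libraries agreed within sampling noise.

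Members were described in full where they were DEGs with a mean of at least 1 CPM. Those among 20 genes of the pathway named by role were also described in full. Of the other lists, 5 DEGs were described with Rfx5, Irf1 and the constitutive proteasome subunits. Some interferon and NF-Y factors of these lists were given by fold change. A further gene of these lists is counted but not reported here. The members and all lists were chosen with earlier results of these data known. Intervals of count ratios are exact binomial and, like the floor of 3 counts, cover counting error only.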

Additional observations from a re-analysis of the deposited data

How the results depend on the processing

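Across 19 alternatives, the 37 tested genes of the 59 kept their direction and side of the threshold in 655 of 680 comparisons, were weaker in 20 and reversed in 5 (H2-T24 and H2-T5). Requiring a fold change over 2 left 1339 DEGs in all, 8 of the 59 genes, 0 class I genes and 0 loading genes, and dropping the fold limit gave 7763, 31, 14 and 8, and 26 of the other genes. Loading genes numbered 1 DEG in place of 2 with scaling by library size alone, with log2(FPKM + 1) and with log2(FPKM + 0.1), and 1 to 2 when 1 library was left out, since Psmb8 lay near the limit. Class II pathway DEGs were 3 with at least 10 counts in every sample, because H2-Aa, H2-Ab1, H2-DMb2 and H2-Eb1 then left the test. The class II to class I ratio moved to -2.39 on FPKM. The reversed values were of genes that did not pass the test, with Psmb6 beside the 37: H2-T24 without shNC replicate 1 (-0.014) or 2 (-0.00064), H2-T5 without shNC replicate 2 (-0.045) or shTrem2 replicate 2 (-0.065) or on the row with the most counts (-0.43), and Psmb6 with library size alone (-0.0036) and on FPKM (-0.00275 and -0.00276). Leaving out other libraries gave up to 0.12 for H2-T24 and 0.28 for H2-T5. On that row the log2 fold change was -1.23 for H2-T22 and -5.50 for H2-Eb1, and H2-Aa (adjusted p = 0.054), H2-K2 (0.123), H2-Q1 (0.181), H2-T10 (0.183) and H2-T13 (0.254) did not pass. Calls higher in shTrem2 were 43.4% of DEGs, and 39.0% with library size alone.

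With the replicate number as a block, 2911 genes in all and the same 17 of the 59 genes were DEGs, and no call of a list changed. The numbers did not pair the libraries, and not every library correlated best with its own number. The levels of H2-Aa, H2-Ab1, H2-Eb1, H2-DMb2, Ciita and Marchf1 are limited by depth, at 76 counts or fewer in at least 1 group.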
